A study of Mus musculus with 9 samples.

Results

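Igf2bp3, Htra3, Elavl4 and Pigr were 4 of the 24054 genes counted in splenic type 2 dendritic cells, and they were chosen by symbol because earlier results of these data had put them among genes high in young and near 0 in adult cells. The young-against-adult difference is therefore described here without a test, and tests on the 4 genes are kept to the comparison of both young populations, which shares its libraries with the choice. The 9 libraries held CD11c+MHCII+CD11b+ cells, live and negative for autofluorescence, sorted from spleens of C57BL/6 Clec9a-Cre/Cre Rosa-tdTomato/tdTomato mice. In these mice Cre is driven from the Clec9a locus, which is active in committed dendritic cell precursors, and switches on the red protein TOMATO for good, so TOM+ cells carry a history of Clec9a expression and TOM- cells do not. Of the 9 libraries, 3 were TOM+ cDC2 and 3 were TOM- DC2 from 8-day-old mice ("young"), and 3 were TOM+ cDC2 from adults, of which 1 was 9 weeks and 2 were 8 weeks old. No adult TOM- library was analysed here, so age cannot be compared within TOM- DC2. Both alleles of Clec9a carry Cre in every group, which leaves the mice without functional DNGR-1, the receptor Clec9a encodes, and for the young groups several spleens went into one sort.

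The 4 genes have little in common by function. IGF2BP3 is an oncofetal RNA-binding protein that stabilizes messenger RNAs. It belongs to the circuit in which LIN28B blocks maturation of let-7 microRNAs in fetal blood progenitors and so keeps let-7 targets, IGF2BP3 among them, high until LIN28B falls after birth. HTRA3 is a secreted serine protease of the HtrA family that can restrain TGF-beta signalling. ELAVL4, also called HuD, binds AU-rich elements of messenger RNAs and is known mainly from neurons. PIGR is the polymeric immunoglobulin receptor, with which mucosal epithelia carry dimeric IgA and IgM to the lumen.

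In the GRCm38 build of the mouse genome (mm10), RefSeq places Igf2bp3 on the minus strand at chr6:49085218-49215469, Htra3 on the minus strand at chr5:35652026-35679813, Elavl4 on the minus strand at chr4:110203737-110351939 and Pigr on the plus strand at chr1:130826684-130852249. Promoter windows from 250 bases before to 50 bases after the annotated start were found for 4 of the 4 genes in RefSeq, as 7 windows, of which 4 belonged to Elavl4. The windows of Igf2bp3, Htra3 and Pigr are shown because their genes differed most clearly between groups, with the letters CACGTG (the E-box, searched on both strands, on which it reads alike) in capitals. They were read 5′ to 3′ on the strand of each gene from chr6:49214905-49215204, chr5:35679731-35680030 and chr1:130826434-130826733.
Igf2bp3: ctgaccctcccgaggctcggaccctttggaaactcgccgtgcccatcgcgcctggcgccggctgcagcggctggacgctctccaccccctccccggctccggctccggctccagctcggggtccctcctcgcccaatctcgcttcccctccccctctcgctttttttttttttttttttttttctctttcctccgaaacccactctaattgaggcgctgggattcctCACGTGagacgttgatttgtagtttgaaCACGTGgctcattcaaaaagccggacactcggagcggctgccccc
Htra3: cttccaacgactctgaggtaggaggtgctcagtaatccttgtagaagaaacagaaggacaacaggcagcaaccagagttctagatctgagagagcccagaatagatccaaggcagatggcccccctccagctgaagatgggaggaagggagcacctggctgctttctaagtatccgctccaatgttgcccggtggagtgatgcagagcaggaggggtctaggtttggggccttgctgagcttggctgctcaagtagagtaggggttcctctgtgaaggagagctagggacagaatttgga
Pigr: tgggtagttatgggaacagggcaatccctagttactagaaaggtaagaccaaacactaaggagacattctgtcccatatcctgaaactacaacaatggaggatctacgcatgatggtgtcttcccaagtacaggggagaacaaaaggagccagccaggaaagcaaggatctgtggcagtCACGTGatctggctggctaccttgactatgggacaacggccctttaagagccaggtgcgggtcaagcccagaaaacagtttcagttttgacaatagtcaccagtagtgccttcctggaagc
The Igf2bp3 window held 2 E-boxes and the Pigr window 1, and neither Htra3 nor any of the 4 Elavl4 windows held one, where 7.15% of the 32851 promoter windows did. The E-box of Pigr began 71 bases before the start, and those of Igf2bp3 began 23 bases before it and at base 6 after it. The Igf2bp3 window was rich in CpG, with 25 CpG and an observed-to-expected ratio of 0.98, against 4 CpG and 0.22 in Pigr, 3 CpG and 0.15 in Htra3, and a median ratio of 0.38 over all windows. TATAAA was found in none of the 7 windows (13.6% of all windows), GGGCGG in none (35.7%), CCAAT in those of Igf2bp3 and Htra3 and in 3 of the 4 Elavl4 windows (37.4%), and AGGTCA in 2 overlapping Elavl4 windows (16.3%). All motifs were searched on both strands, and a match describes letters only.

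The let-7 seed and its match in Igf2bp3 are shown because Igf2bp3 is a textbook member of the LIN28B and let-7 circuit. Of the 11 mature let-7 family members matched in RefSeq, 10 shared the seed GAGGUAG (bases 2 to 8, in capitals below) and let-7j had GAGGUAU. The DNA letters that pair with that seed, CTACCTC, are in capitals in the stretch of the Igf2bp3 3′ UTR, read on the minus strand from chr6:49086783-49086805.
mmu-let-7a-5p: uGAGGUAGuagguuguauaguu
mmu-let-7g-5p: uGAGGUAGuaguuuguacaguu
mmu-miR-98-5p: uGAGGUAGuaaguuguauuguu
Igf2bp3 site: tttttactcaaCTACCTCaggta
This was the single match in the 2119 bases of that 3′ UTR, starting at base 548 after the stop codon, in the longest coding transcript of GENCODE. No match was found in the 3′ UTRs of Htra3, Elavl4 and Pigr, of 934, 2595 and 1353 bases. Of the 2693 other genes with a 3′ UTR within 20% of the Igf2bp3 length, 13.03% held at least 1 match, so most held none. That share counts the letters CTACCTC alone, whatever base follows. Whether the match acts on Igf2bp3 was not tested, and let-7 itself is not measured in these libraries.

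Depth and identity of the libraries bear on all values. Reads counted on genes numbered 16128082 to 19661754 in young TOM+ cDC2, 14270110 to 22809401 in young TOM- DC2 and 12783252 to 16809639 in adult TOM+ cDC2. All 11 genes of a cDC2 list were tested in every comparison. Itgax lay between 301 and 463 TPM over the 9 libraries, and Xcr1, the defining cDC1 receptor, between 2.43 and 3.79 TPM. TPM is the level RSEM gives per transcript, corrected for transcript length and library size. Of the 11, Clec4a4, Cd209a and Esam were higher in adults than in each young group. The limits were a log2 fold change beyond 1 and an adjusted p under 0.05 by edgeR. Mean Esam was 18.96 TPM in young TOM+ cDC2, 28.36 TPM in TOM- DC2 and 80.03 TPM in adults. Between the young groups 0 of the 11 passed. Cadm1, of a cDC1 list of 6 genes, was higher in both young groups than in adults by the same limits. That list, Xcr1 included, summed to 312 to 358 TPM in young TOM+ cDC2, 309 to 352 TPM in TOM- DC2 and 306 to 344 TPM in adults. Its other genes together were thus far above Xcr1. Whether cDC2 composition matched between ages was not tested. Stromal markers were high in replicate 1 of both young groups, which carry the same number in their deposited names, and TOM- DC2 replicate 1 had 444 TPM of Hba-a1, a hemoglobin gene, against 0 to 35.8 TPM in the other 8 libraries. In RNA from sorted bulk populations, fewer cells with a transcript and less transcript per cell cannot be told apart. The labels do not name the animals behind each library, and only the age of adult replicate 1 (9 weeks) sets it apart from the other adults (8 weeks). The paper describes its replicates as biological. The p-values measure the spread between these libraries.

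Igf2bp3 was, per transcript length, the most abundant of the 4 genes in young cells and varied little across libraries. Its counts were 1647, 1429 and 1780 in young TOM+ cDC2, 1319, 1403 and 1895 in young TOM- DC2 and 4, 7 and 12 in adult TOM+ cDC2. Every young library was thus far above every adult library, and both young groups overlapped. As CPM, which are counts scaled to library size with TMM factors, the level was 85.5 ± 2.92 (SD, n = 3) in young TOM+ cDC2, 84.2 ± 3.58 (SD, n = 3) in TOM- DC2 and 0.576 ± 0.214 (SD, n = 3) in adults. The ratio of these means was 148 for TOM+ cDC2 and 146 for TOM- DC2 over the adult group, given as a description because the genes were selected on it. Per transcript length, Igf2bp3 reached 32.7 TPM in young TOM+ cDC2 and 33.1 TPM in TOM- DC2, a level above that of 69.4% to 71.2% of the expressed genes in the 6 young libraries.

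Htra3 followed the same order at a lower level and with more spread. Its counts were 249, 397 and 372 in young TOM+ cDC2 and 187, 316 and 487 in young TOM- DC2. Of the adult libraries, replicate 2 held 1 read and the others 0. Every young library lay far above every adult library and the young groups overlapped. The level was 18.2 ± 5.65 CPM (SD, n = 3) in young TOM+ cDC2 and 17.4 ± 4.67 CPM (SD, n = 3) in TOM- DC2, or 12.0 and 11.6 TPM. Because the adult group rests on 1 read, the ratio of pooled counts, 691 for TOM+ cDC2 and 692 for TOM- DC2, has an exact 95% counting interval from 124 to 27310 and from 124 to 27340. Such intervals cover counting error only.

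Elavl4 was the lowest of the genes shared by both young populations. Its counts were 209, 112 and 131 in young TOM+ cDC2, 114, 70 and 111 in young TOM- DC2 and 1, 0 and 10 in adults. All young libraries lay above all adult libraries, and the highest TOM- library lay above the lowest TOM+ library. The level was 7.89 ± 2.23 CPM (SD, n = 3) in young TOM+ cDC2, 5.47 ± 1.65 CPM (SD, n = 3) in TOM- DC2 and 0.243 ± 0.348 CPM (SD, n = 3) in adults, which makes ratios of 32.5 and 22.5 over the adult mean. Replicate 3 held 10 of the 11 adult reads, and without it the adult mean was 0.0434 CPM. In TPM, Elavl4 stood at 3.43 in young TOM+ cDC2 and 2.35 in TOM- DC2.

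Pigr did not follow the other genes: its reads were in young TOM- DC2. Its counts were 166, 159 and 244 in that group, 7, 0 and 12 in young TOM+ cDC2, and 0 in each of the 3 adult libraries. The TOM- libraries were all far above the other 6, which had 19 reads together. The level was 10.3 ± 0.421 CPM (SD, n = 3) in TOM- DC2 and 0.315 ± 0.299 CPM (SD, n = 3) in young TOM+ cDC2, or 4.73 and 0.143 TPM. Against a floor of 3 counts per adult library, TOM- DC2 were at least 43.3-fold higher than adults. For Pigr the comparison with adults at matched TOMATO status rests on 19 reads in young TOM+ cDC2 against 0 in adults, and its high level in TOM- DC2 has no adult TOM- library to be set against.

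**Figure D1:**
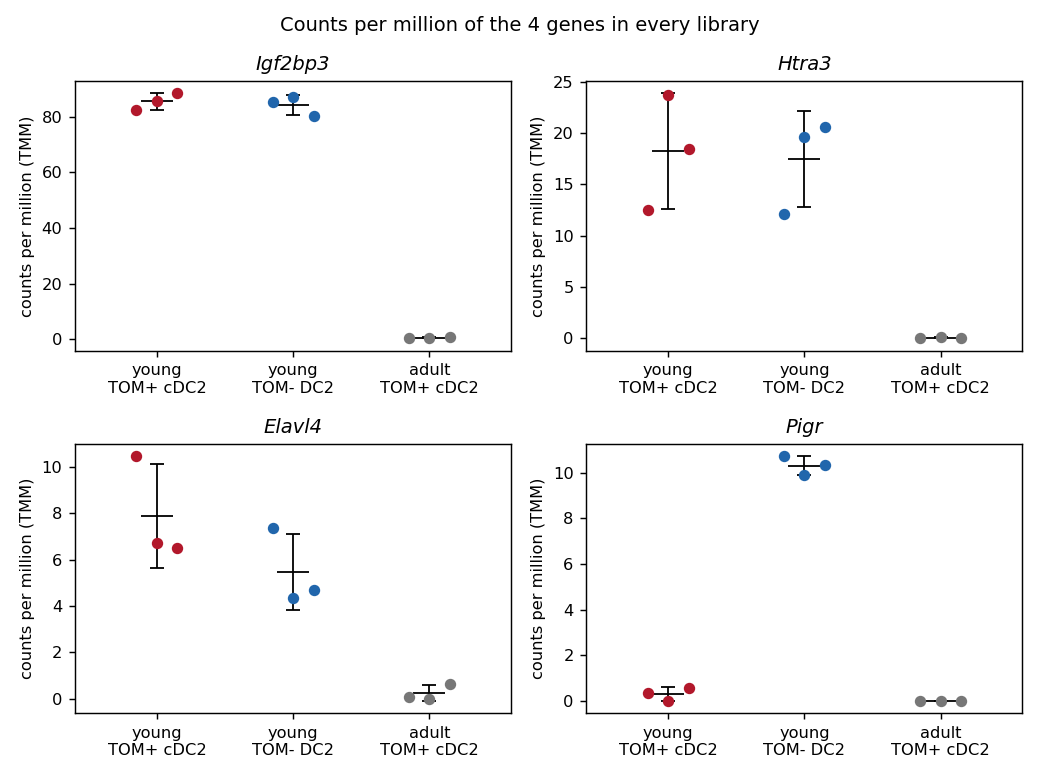
CPM (counts scaled to library size with TMM factors) of the 4 genes (y axis, linear) in every library (1 point a library), by group, with the mean and SD (n = 3) as bars. Igf2bp3, Htra3 and Elavl4 are high in both young groups and near 0 in adults, while Pigr lies between 9.88 and 10.7 in young TOM- DC2 and at or below 0.596 elsewhere.

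By mean TPM the order in young TOM+ cDC2 was Igf2bp3, Htra3, Elavl4 and Pigr, with no overlap of libraries between any neighbours in that order. In TOM- DC2 it was Igf2bp3, Htra3, Pigr and Elavl4, again without overlap, Pigr lying between 4.48 and 5.12 TPM and Elavl4 between 1.70 and 3.43 TPM. In adults all 4 genes were at or below 0.26 TPM, and Igf2bp3 (0.12 to 0.24 TPM) overlapped Elavl4 (0 to 0.26 TPM). The coefficient of variation among young libraries of a group was 3.42% and 4.26% for Igf2bp3, 31.0% and 26.8% for Htra3, and 28.3% and 30.1% for Elavl4 (TOM+ cDC2 first). For Pigr it was 4.09% in TOM- DC2. Mean transcript lengths given by RSEM were stable over the young libraries, at 4347 bases for Igf2bp3, 3849 for Pigr, 2549 to 2621 for Htra3 and 3960 to 4008 for Elavl4.

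Whether ontogeny, as read by TOMATO, goes with these genes at 8 days was asked by comparing both young populations with edgeR's quasi-likelihood test. Calls needed a log2 fold change beyond 1 and a Benjamini-Hochberg adjusted p under 0.05 over all 14452 genes tested. In that comparison 170 genes were called (1.18% of those tested), 3 higher in TOM+ cDC2 (0.0208%) and 167 higher in TOM- DC2 (1.16%), and with the number in the deposited names as a replicate block 274 were called. Of the 4 genes, 1 was called, Pigr, and it was higher in TOM- DC2. Its high level in young cells, on which it was chosen, came from TOM- DC2 alone, so its p-values are not independent of the choice. Pigr had a log2 fold change of -4.93 (TOM+ minus TOM-, SE 0.473, 95% interval -5.99 to -3.88, adjusted p = 0.000333 by edgeR), was lower in TOM+ cDC2 in 3 of 3 same-numbered pairs, and was called under all 21 alternatives run, with adjusted p between 8.59e-07 and 0.00632. Igf2bp3 had a log2 fold change of 0.02 with a 95% interval from -0.18 to 0.22 (adjusted p = 0.983 by edgeR), so its interval leaves room for a small difference only. Htra3 had 0.05 with an interval from -0.47 to 0.58 (adjusted p = 0.984 by edgeR), which leaves room for a moderate difference, and the sign of Igf2bp3 and of Htra3 turned under some alternatives, for Htra3 without TOM+ cDC2 replicate 2 (-0.18) or TOM- DC2 replicate 1 (-0.15).

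Elavl4 leaned towards TOM+ cDC2 without passing the test. Its level in TOM+ cDC2 was 1.42, 1.54 and 1.38 times that in the TOM- library of the same number. The log2 fold change was 0.54 with a 95% interval from -0.22 to 1.29 (adjusted p = 0.744 by edgeR), and 0.53 with an adjusted p of 0.0617 in the edgeR fit with the replicate block. The same-numbered ratios were less even for Htra3, at 1.03, 1.21 and 0.895, and for Igf2bp3, at 0.968, 0.981 and 1.10.

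**Figure D2:**
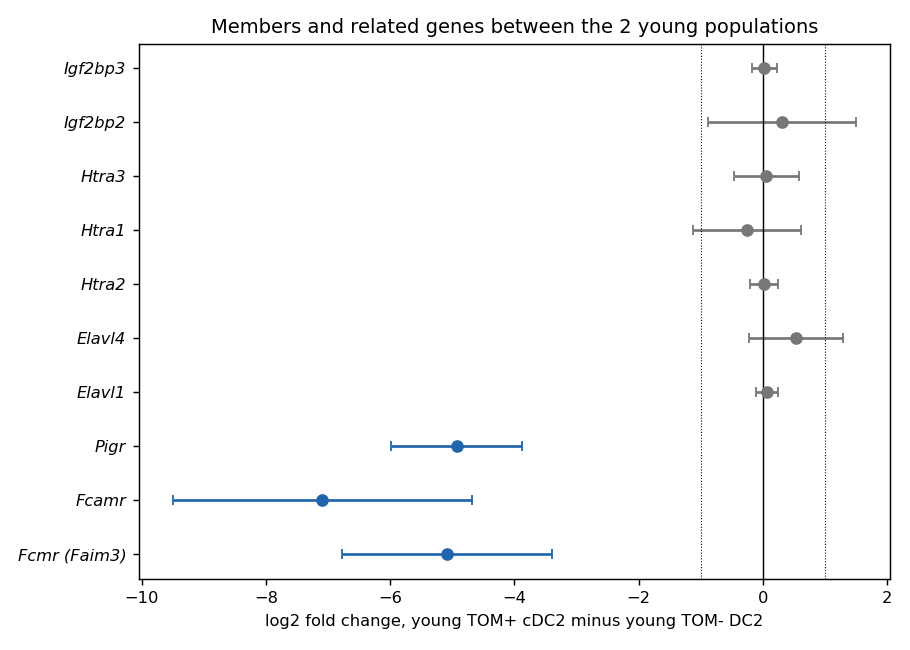
Log2 fold change between young TOM+ cDC2 and young TOM- DC2 (x axis, TOM+ minus TOM-) with its 95% interval from edgeR for the 4 genes and their relatives Igf2bp2, Htra1, Htra2, Elavl1, Fcamr and Fcmr, blue where called and grey where not, with dotted lines at -1 and 1. Pigr and its relatives Fcamr and Fcmr lie at -4.93, -7.09 and -5.09, and the intervals of the other 7 plotted genes include 0.

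Pigr has Fc receptor genes on both sides, and these were in TOM- DC2 as well. Fcamr, which encodes a receptor for IgA and IgM, ends 0.781 kb before Pigr on chromosome 1, and Fcmr, the IgM receptor gene listed as Faim3 in the files, begins 13.5 kb after it. The counts of Fcamr were 11, 15 and 32 in TOM- DC2 and 0 in every other library. Those of Fcmr were 32, 34 and 45 in TOM- DC2, 0, 0 and 3 in young TOM+ cDC2 and 0 in adults. For both genes all TOM- libraries thus lay above all others, and the 3 receptors stood at 4.73 (Pigr), 2.51 (Fcmr) and 0.803 TPM (Fcamr) in TOM- DC2.

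Both neighbours passed the test between the young populations. Fcamr was at least 6.26-fold higher in TOM- DC2 than in TOM+ cDC2, taking a floor of 3 counts per library (adjusted p = 0.0129 by edgeR). It was not called without TOM- DC2 replicate 3 or without both libraries numbered 91 or 92 (adjusted p = 0.0751, 0.128 and 0.179 by edgeR), nor by limma on log2(TPM + 1), where its change was -0.84. Fcmr was 38.1-fold higher by pooled counts, with an exact 95% counting interval from 12.7 to 188 on 3 TOM+ reads (adjusted p = 0.0058 by edgeR, and 0.12 without both libraries numbered 91). The next tested genes outwards, AA986860 and the cytokine gene Il10, were not called, Il10 lying at 0.64 to 1.67 TPM in TOM- DC2 and 0.46 to 0.71 TPM in young TOM+ cDC2. Between Fcmr and Il10, the cytokine genes Il24, Il20 and Il19 were at or below 0.15 TPM in all 9 libraries.

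**Figure D3:**
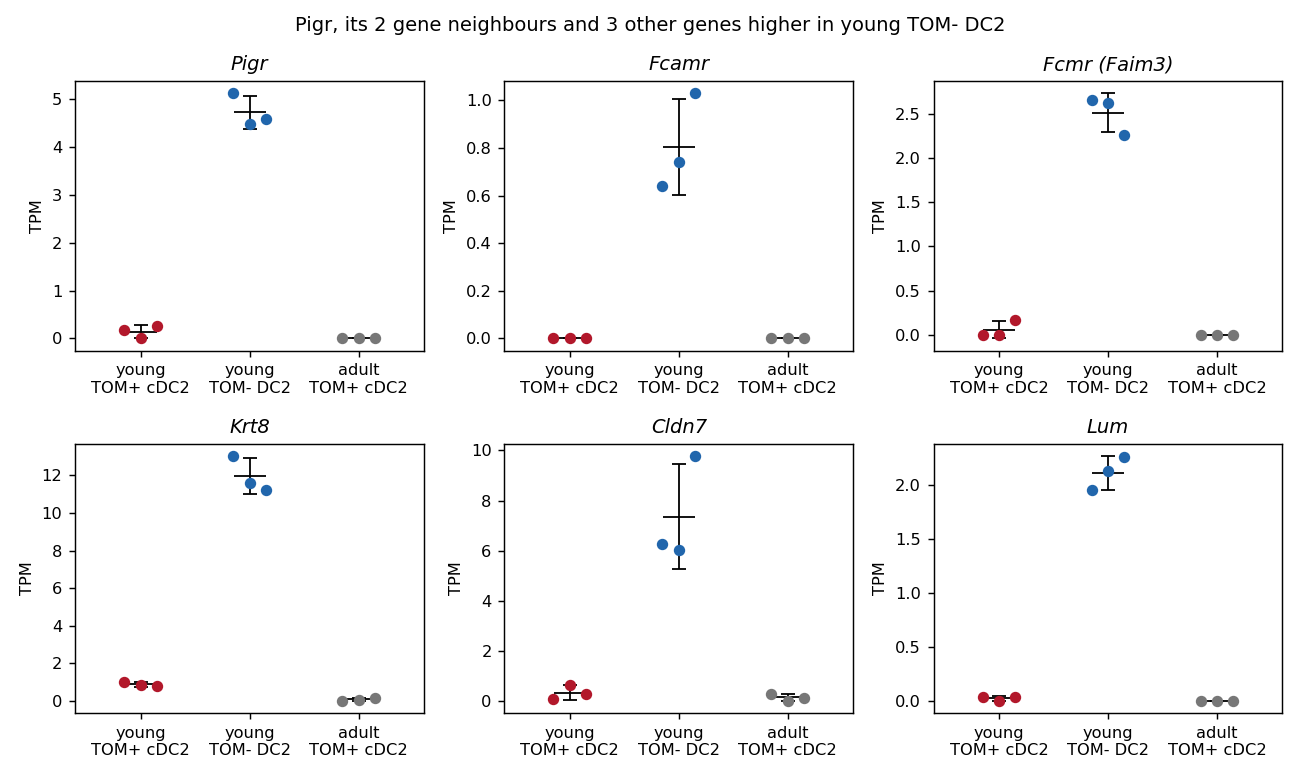
TPM (y axis, linear) of Pigr, its neighbours Fcamr and Fcmr, and the marker genes Krt8, Cldn7 and Lum in every library (1 point a library), by group, with mean and SD (n = 3). For each of the 6 genes the 3 TOM- DC2 libraries lie above the other 6.

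Other genes stood in TOM- DC2 beside Pigr, among them markers of other cell types. Krt8, an epithelial keratin, measured 13.03, 11.6 and 11.2 TPM in TOM- DC2, 0.80 to 1.03 TPM in young TOM+ cDC2 and 0 to 0.18 TPM in adults. Cldn7, an epithelial claudin, measured 6.04 to 9.78 TPM in TOM- DC2 and 0.07 to 0.64 TPM in young TOM+ cDC2. In both genes the TOM- libraries were separate from all others, and both were called between the young populations.

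The marker lists are set beside the 1.16% of all tested genes that were called higher in TOM- DC2. Of 7 tested epithelial markers 2 (28.6%) were called higher in TOM- DC2 than in young TOM+ cDC2, Krt8 and Cldn7, and 0 lower. The summed level of the 10 epithelial markers was 147 to 158 TPM in TOM- DC2 and 135 to 151 TPM in young TOM+ cDC2, most of it Spint1 (112 to 144 TPM over the 9 libraries). Without Spint1, left out after its level was seen, the sums were 29.9 to 34.8 TPM in TOM- DC2, 6.81 to 9.95 TPM in young TOM+ cDC2 and 13.7 to 21.6 TPM in adults, and these ranges did not overlap. The defining epithelial markers Krt19 and Cldn4 were at 0 in all 9 libraries. Of 9 ILC3 markers 4 (44.4%) were called higher in TOM- DC2 (among them Gata3, Il1r1 and Il18r1) and 0 lower, with a sum of 220 to 289 TPM against 150 to 188 TPM. Il7r, the receptor that defines innate lymphoid cells, was not called, at 4.79 to 5.61 TPM against 2.89 to 3.63 TPM. Of the B cell and plasma cell markers, which bear on receptors for immunoglobulin, 1 of 8 (12.5%) was called higher in TOM- DC2 (Ms4a1), and the sums were 70.4 to 81.6 and 61.7 to 70.8 TPM. Macrophage markers summed to 491 to 550 TPM in TOM- DC2 and 370 to 402 TPM in young TOM+ cDC2, with a median log2 fold change of -0.67, and the furthest of them, Mertk, had -1.18 (adjusted p = 0.312 by edgeR). Stem and progenitor markers (221 to 287 against 168 to 208 TPM) and pDC markers (151 to 160 against 129 to 133 TPM) also summed higher in TOM- DC2 without overlap. None of either list was called between the young populations, and the pDC list had a median log2 fold change of 0.06 (TOM+ minus TOM-). Kit is in both the ILC3 and the progenitor list, so these sums share a gene. Its level was 516 CPM in young TOM+ cDC2, 668 CPM in TOM- DC2 and 1045 CPM in adults. Adult sums reached 284 to 341 TPM (ILC3), 334 to 396 TPM (progenitor) and 171 to 209 TPM (pDC). The part of epithelial, lymphoid, B, macrophage, progenitor or plasmacytoid cells in the Pigr level was not tested.

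Outside the TOM- pattern, 2 libraries with stromal transcripts stood apart in Htra3 and Elavl4 as well. The 10 stromal markers summed to 28.5 TPM in young TOM+ cDC2 replicate 1 and 24.4 TPM in TOM- DC2 replicate 1, against 1.49 to 6.03 TPM in the other 4 young libraries and 0.62 to 1.07 TPM in adults. Sparc, a matrix glycoprotein gene, took 12.8 and 12.9 TPM of these sums. Of the 10 markers 1 was called between the young populations, Lum, which encodes a matrix proteoglycan and was higher in TOM- DC2 (1.95 to 2.26 TPM against 0 to 0.04 TPM). Both replicate 1 libraries had the lowest Htra3 level of their group, 12.5 and 12.1 CPM against 18.5 to 23.8 CPM in the other 4 young libraries. They also had the highest Elavl4 level of their group, 10.5 and 7.36 CPM against 4.35 to 6.70 CPM. Igf2bp3 showed no such shift, at 82.5 and 85.2 CPM against 80.2 to 88.3 CPM.

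**Figure D4:**
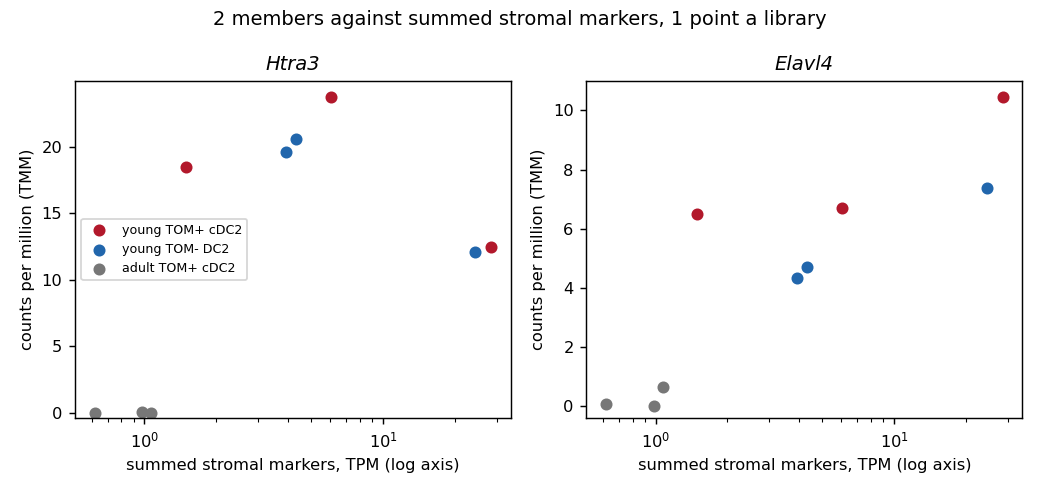
CPM (counts scaled to library size with TMM factors) of Htra3 and Elavl4 (y axes, linear) against the summed TPM of 10 stromal markers (x axes, log scale), 1 point a library, coloured by group. The 2 young libraries at the right, with 24.4 and 28.5 TPM of stromal markers, are the lowest young libraries for Htra3 and the highest for Elavl4.

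Neither gene needed these libraries for its place among young cells: the 4 other young libraries held 316 to 487 reads of Htra3 and 70 to 131 reads of Elavl4, against at most 1 and 10 reads in adults. Without both replicate 1 libraries the log2 fold change of Elavl4 between the young populations was again 0.54 (adjusted p = 0.814 by edgeR). The part of stromal cells in the level of either gene was not tested. Neuronal markers were near 0 beside Elavl4: of 12, Snap25, Syt1, Nefl, Nefm, Gap43 and Elavl2 were at 0 in all 9 libraries, and the sum was 0.86 to 2.61 TPM in young and 0.29 to 1.31 TPM in adult libraries, most of it Tubb3.

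The circuits around the 4 genes were read from 5 lists, of which 82 of 84 genes were in the files and 69 were tested. Across all genes, 1853 were called between young TOM+ cDC2 and adults (12.8%), 862 higher in young (5.96%) and 991 higher in adults (6.86%). Between young TOM- DC2 and adults 1631 were called (11.3%), 940 higher in young (6.50%) and 691 higher in adults (4.78%). Of the 69, 4 were called higher in young TOM+ cDC2 and 6 higher in adults, 14.5% together, which is near the share of all genes. In TOM- DC2 against the same adults the counts were 7 and 6, or 18.8%. Between the young populations 2 were called, Fcamr and Fcmr, and 0 higher in TOM+ cDC2.

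Of the tested relatives of Igf2bp3, Htra3 and Elavl4, Igf2bp2 alone was called, while those of Pigr, Fcamr and Fcmr, were called with it as described above. Of the IGF2BP family, Igf2bp1 was at or below 0.02 TPM in every library, and Igf2bp2 had 6 to 10 reads in each young library and 0 in each adult library. Igf2bp2 was called higher in young than in adult cells, at least 2.01-fold for TOM+ cDC2 (adjusted p = 0.00165 by edgeR) and at least 1.63-fold for TOM- DC2 (adjusted p = 0.00311 by edgeR) over a floor of 3 counts per library. Of the HtrA proteases, Htra2, a mitochondrial member, went the other way at 55.3 to 70.1 TPM in young and 85.3 to 96.4 TPM in adult libraries, with log2 fold changes of -0.74 and -0.76 that did not reach the threshold of 1. Htra1 (0.51 to 1.38 TPM) and Htra4 (at most 0.12 TPM) were not called in any comparison. Of the ELAV proteins, Elavl1, the form found in all tissues, measured 65.4 to 80.2 TPM in young and 50.2 to 54.1 TPM in adult libraries (log2 fold change 0.35 and 0.27, below the threshold), and Elavl2 and Elavl3 were at or below 0.07 TPM.

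The LIN28B and let-7 circuit had about the share of calls of all genes. Lin28a and Trim71 were at 0 in all 9 libraries and Lin28b was at or below 0.07 TPM, so the RNA of the regulators themselves was not detectable or barely so at this depth. Of 15 tested genes, Igf2bp2 was called higher in young cells and Cdk6, a cell cycle kinase, higher in adults, in both comparisons with adults, which is 13.3% against 12.8% and 11.3% of all genes. The median log2 fold change of the list was 0.38 for TOM+ cDC2 and 0.34 for TOM- DC2, against 0.05 and 0.07 over all tested genes. Cdc25a, a cell cycle phosphatase, lay at 15.8 to 19.6 TPM in young and 9.31 to 12.3 TPM in adult libraries, and Arid3a, a transcription factor of fetal B cells, at 8.80 to 13.1 and 6.14 to 7.05 TPM. Cdc25a, Arid3a and the other let-7 targets Nras and Ccnd2 were not called. By adjusted p alone (edgeR), without the fold threshold, 11 of the 15 passed for TOM+ cDC2, 8 of them higher in young cells. For TOM- DC2 8 passed, 7 of them higher in young cells. Nras lay higher in young TOM+ cDC2 than in adults (log2 fold change 0.32) and Ccnd2 lower (-0.56).

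Imprinted and fetal growth genes were mostly low or absent. In each comparison with adults 20% of the tested genes were called, against 12.8% and 11.3% of all genes. The median log2 fold change of the list was 1.24 for TOM+ cDC2 and 3.47 for TOM- DC2, against 0.05 and 0.07 over all tested genes. Several of these genes, such as Grb10 and Gpc3, had 0 reads in every adult library. Igf2, whose message IGF2BP proteins are named for, was at or below 0.03 TPM, and H19 was at 0 in all 9 libraries. Of 10 tested genes, Plag1, a zinc finger gene active in fetal growth, was called higher in young TOM+ cDC2 (0.38 to 0.72 TPM) and TOM- DC2 (0.42 to 0.71 TPM) than in adults (0.06 to 0.12 TPM). Its log2 fold changes were 2.46 (SE 0.45, adjusted p = 0.00086 by edgeR) and 2.49 (SE 0.45, adjusted p = 0.000931 by edgeR). Plagl1 was called higher in adults than in TOM+ cDC2 at the very threshold of 1, and was not called under 8 of 21 alternatives, among them the replicate block (-0.94), limma, and leaving out TOM+ replicate 1 (-0.84), adult replicate 1 (-0.94) or adult replicate 2 (-0.87). Igf2r was called higher in TOM- DC2 (0.08 to 0.21 TPM) than in adults (0 TPM), at least 3.14-fold over a floor of 3 counts per library.

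Among AU-rich element binding proteins, the group to which ELAVL4 belongs, 1 of 13 tested genes was called, in both comparisons with adults. That is 7.69%, against 12.8% and 11.3% of all genes. By adjusted p alone, without the fold threshold, 6 of the 13 passed for TOM+ cDC2 and 7 for TOM- DC2. Zfp36l1, a protein that speeds decay of such messages, was higher in adults, at 342 to 448 TPM against 134 to 223 TPM in young libraries (log2 fold change -1.36, SE 0.19, adjusted p = 0.000112 for TOM+ cDC2 by edgeR). Its relative Zfp36 was the most abundant gene of the list, at 2469 to 2698 TPM in young and 3424 to 5335 TPM in adult libraries, and did not reach the threshold of 1. Hnrnpd and Khsrp lay higher in young cells by less than the threshold, at 105 to 123 against 63.2 to 80.5 TPM and 56.2 to 76.4 against 34.1 to 41.0 TPM.

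In the list of HTRA proteases and TGF-beta signalling, genes changed with age in both directions. Bmp2, a TGF-beta family ligand, was higher in adults, at 22.7 to 29.9 TPM against 4.88 to 6.05 TPM in young TOM+ cDC2, with a log2 fold change of -2.44 (SE 0.16) in both comparisons. Smad6 and Smad7, both inhibitory SMADs, went in opposite directions. Smad6 measured 1.02 to 1.54 TPM in young and 0.09 to 0.23 TPM in adult libraries (log2 fold change 2.93, adjusted p = 7.29e-05 for TOM+ cDC2 by edgeR), while Smad7 measured 27.8 to 35.4 and 63.1 to 81.4 TPM (log2 fold change -1.17, adjusted p = 1.85e-05 for TOM+ cDC2 by edgeR). Tgfb1, a ligand gene, and the receptor gene Tgfbr2 were not called in any comparison, at 193 to 291 and 39.5 to 55.3 TPM. Tgfbr3, Tgfb3 and Fn1 were called in 1 comparison each, below 2 TPM throughout, and each was lost under 8 of 21 alternatives, among them those without young replicate 1 of the group compared. In all, 4 of 18 tested genes were called between TOM+ cDC2 and adults (22.2%) and 5 of 18 between TOM- DC2 and adults (27.8%), against 12.8% and 11.3% of all genes.

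Genes around polymeric immunoglobulin and the signals that induce Pigr were, its neighbours aside, not called with it. Apart from Fcamr and Fcmr, no gene of the 13 tested was called between the young populations. The receptor genes Ifngr1, Il4ra, Tnfrsf1a and Il17ra, through which Pigr is induced in epithelia, had log2 fold changes of -0.06, 0.00, -0.03 and 0.06 between TOM+ cDC2 and TOM- DC2. Irf1, which acts on the Pigr gene downstream of interferon, lay at 149 to 162 TPM in young TOM+ cDC2, 157 to 171 TPM in TOM- DC2 and 259 to 292 TPM in adults, the group in which Pigr was at 0. Jchain, listed as Igj and encoding the joining chain of the ligands of PIGR, was at 0 in all 6 young libraries and had 13, 6 and 3 reads in adults.

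**Figure D5:**
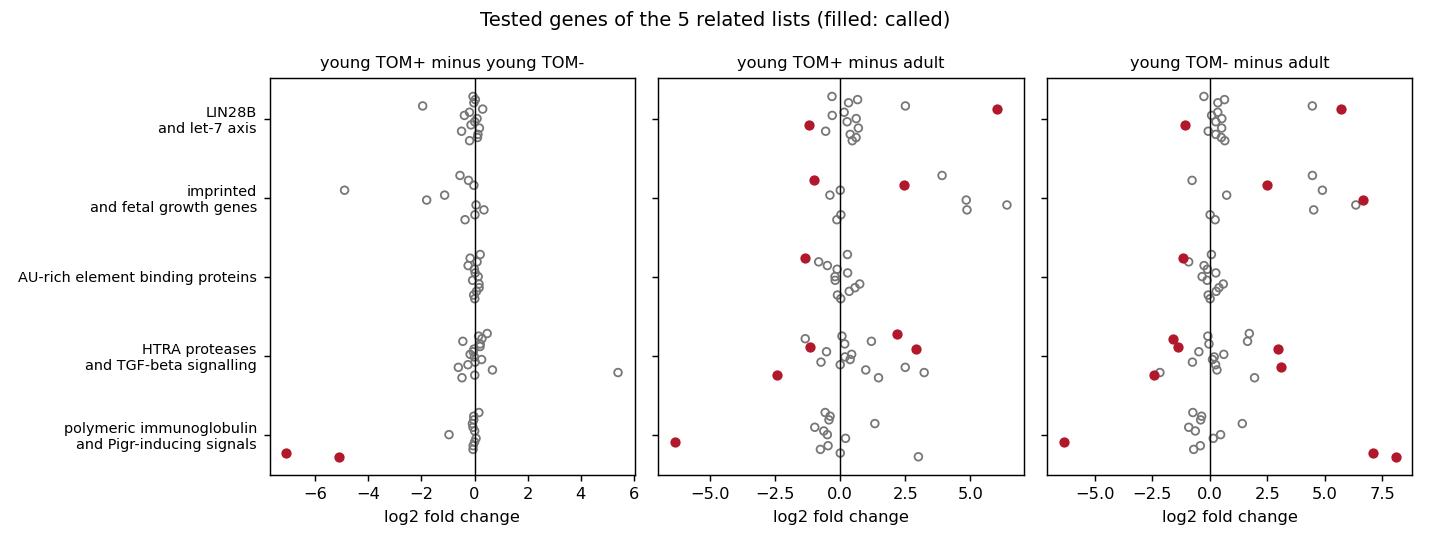
Log2 fold changes (x axes, first group minus second) of the tested genes of the 5 lists (rows, 1 point a gene) in the 3 comparisons (panels), filled where called. Between the young populations 2 points are filled, Fcamr and Fcmr, and against adults filled points lie on both sides of 0.

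The genes with the profile closest to each member over the 9 libraries were found by Pearson correlation of log2(CPM + 0.1), which mostly follows the step between young and adult libraries and is given without a test. For Igf2bp3 these were Adora3 (r = 0.998), an adenosine receptor, Pilrb1 (0.997), a paired immunoglobulin-like receptor, and Cysltr1 (0.996), the cysteinyl leukotriene receptor. Cysltr1 measured 28.3 to 34.9 TPM in young and 2.63 to 2.70 TPM in adult libraries, a level as high as that of Igf2bp3 in young cells but with a remainder in adults. For Htra3 they were Rxra (0.999), Rpa2 (0.998) and Rara (0.997), of which Rxra and Rara encode nuclear receptors for retinoids and lay at 6.59 to 7.14 and 50.8 to 58.0 TPM in young against 2.53 to 2.76 and 12.9 to 15.8 TPM in adult libraries. For Elavl4 they were Ndufs1 (0.993), Brca2 (0.991) and Bid (0.991). For Pigr they were Lingo4 (0.986), Slc28a3 (0.983), a nucleoside transporter, and Nr1d1 (0.978), a repressor of the circadian clock. Slc28a3 had 789 reads in TOM- DC2, 6 in young TOM+ cDC2 and 0 in adults. Among the members, r was 0.992 between Igf2bp3 and Htra3, 0.953 between Igf2bp3 and Elavl4 and 0.668 between Igf2bp3 and Pigr, over the same 9 libraries.

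A pattern as strict as that of Htra3 was rare. Genes with at least 20 reads in every young library and at most 3 in every adult library numbered 7, and 0 genes had the opposite pattern. These limits were set on raw reads, and adult libraries were mostly shallower. They had 12783252 to 16809639 reads on genes, against 14270110 to 22809401 in young libraries, which makes the opposite pattern harder to meet. Of the members, Htra3 alone met it, since Igf2bp3 had up to 12 adult reads and Elavl4 up to 10, and Pigr had at most 12 reads in young TOM+ cDC2. The others were 1700026L06Rik, Ak8, Tctn2, Phactr1, Sec16b and Nes, all at or below 6.66 TPM in young libraries, against 8.65 to 15.3 TPM for Htra3. The count rests on its limits: 1 gene was left, Htra3, with at least 50 reads in young libraries, and 0 with 0 reads in every adult library. Genes with at least 20 reads in every TOM- library and at most 3 in each of the other 6 numbered 20, and Pigr was not among them because young TOM+ cDC2 had up to 12 reads.

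The genes next to the members showed whether a whole neighbourhood differed with age. Malsu1 overlaps Igf2bp3 on the opposite strand, and the counting kept no strand, but Malsu1 was at 18.6 to 27.2 TPM in the adult libraries, where Igf2bp3 had at most 12 reads. The other tested neighbours of Igf2bp3, Tra2a and Ccdc126, were not called in any comparison, and Gpnmb, at or below 0.54 TPM, was called higher in adults than in TOM+ cDC2 but lost that call under 12 of 21 alternatives, including those without any 1 of TOM+ replicates 1, 2 and 3 or adult replicates 1 and 2. Around Htra3 none of the 4 nearest tested genes (among them Acox3, 4931431C16Rik and Sh3tc1) was called. Around Elavl4, which has no tested gene within 239 kb, Bend5, 1062 kb away, was called higher in TOM- DC2 than in both other groups (against TOM+ cDC2 not without TOM+ replicate 2 or 3 or TOM- replicate 1), and Faf1, Cdkn2c and Spata6 were not called. Of the tested neighbours of these 3 genes, only Gpnmb, higher in adults, and Bend5, in TOM- DC2 only, were thus called against adults. Others differed from adults at an adjusted p under 0.05 (edgeR) but below the fold threshold. Among them, Sh3tc1 was higher in young cells (log2 fold change 0.47 and 0.63) and Cdkn2c higher in adults (-0.62 and -0.75). Both flanking receptor genes of Pigr shared its pattern.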

How the data were processed

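Splenic CD11c+MHCII+CD11b+ cells were profiled by SMART-seq mRNA sequencing, which keeps no strand, in 9 libraries of 3 groups taken from the sample labels. The authors used STAR with mm10, and one deposited file per library holds raw counts of reads per gene, of which the unstranded column was used. The authors also deposited RSEM expected counts and TPM, and TPM gave the levels compared between genes. The FPKM column that the authors deposited beside them, also from RSEM, was not used. The share of reads on no gene was 26.1% to 31.6%.

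Counts of all 9 libraries were fitted together in edgeR 4.0.16 (R 4.3.3, quasi-likelihood test, TMM) for the 14452 genes whose mean count reached 1, and genes were called at a log2 fold change beyond 1 and an adjusted p under 0.05. DESeq2 1.42.0, limma 3.58.1 and rounded expected counts served as alternatives. The functions were tested on simulated data. Members and lists were chosen with earlier results of these data known. Named genes were the members, their paralogs, called and abundant genes of 5 lists, the 3 genes of closest profile, genes of the young-only pattern and the nearest tested neighbours. Of the listed genes, Jchain, Fcmr and Adgre1 matched under older symbols, and Ighm and Igha were not analysed here. Deviations of same-numbered young libraries from their group means correlated at r = 0.5, 0.179 and 0.33 over genes (numbers 81, 91 and 92). Between TOM+ and TOM- libraries of unlike number r was -0.409 to 0.185, so the pairing is not clear for number 91. The numbers in the deposited names were used as a replicate block. The block covered all 9 libraries, so adult libraries numbered 91 and 92 shared it with young ones, at r of -0.00178 to 0.0412. Some of the genes that these rules name are not reported here.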

Additional observations from a re-analysis of the deposited data

Results flagged for a closer look

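Pigr, Fcamr and Fcmr differed in the comparison of both young populations, while the comparison of young with adult cells used the same adult libraries for both. That first comparison is not independent of the choice. Pigr was high in young cells through TOM- DC2 alone (569 reads, against 19 in young TOM+ cDC2), and the lists were made with earlier results known. The log2 fold change (TOM+ minus TOM-) was -4.93 for Pigr, -7.09 for Fcamr and -5.09 for Fcmr (listed as Faim3). That of Fcamr depends on the prior count, since its reads in TOM+ cDC2 were 0. No group has more than 3 libraries, so single libraries were not tested as outliers.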

How the results depend on the processing

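Pigr was called between the young populations under all 21 alternatives (log2 fold change -5.71 to -2.33), and Igf2bp3, Htra3 and Elavl4 under none, with adjusted p of at least 0.905, 0.77 and 0.0617. The sign of Igf2bp3 turned with upper-quartile normalization (-0.005), limma on log2(TPM + 1) (-0.015) and log2(TPM + 0.1) (-0.016) and without both young libraries numbered 92 (-0.037), a setting chosen after seeing the data, and ranged from -0.013 to 0.047 with 1 library left out. Htra3 turned without both libraries numbered 91 (-0.089) and ranged from -0.179 to 0.267 with 1 library left out, and Elavl4 from 0.28 to 0.80. Between the young populations 274 genes were called with the replicate block, 169 of them among the 170, and 104 and 82 without both young libraries numbered 91 or 92. The block changed no call on the 4 genes between the young populations. limma on log2(TPM + 1) called 1122 and 986 genes in the comparisons of TOM+ cDC2 and TOM- DC2 with adults, and 1, 3 and 5 related genes in the 3 comparisons, where a pseudocount of 1 shrinks changes of low genes. Related genes called between the young populations were 0 and 1 without both libraries numbered 91 or 92, and 1 to 2 with 1 library left out (1 without TOM- DC2 replicate 3). Genes at the floor in adults numbered 1 with a young minimum of 50 reads, 0 with an adult maximum of 0, and 7 to 11 with 1 library left out (11 without adult replicate 1). Igf2bp3 measured 89.0 and 89.1 CPM without TMM and 72.8 and 72.2 CPM from RSEM expected counts in young TOM+ cDC2 and TOM- DC2, and Pigr 10.9 and 9.11 CPM in TOM- DC2. Other settings moved no group mean by over 1 SD. The cause of these shifts was not tested. Depth limits the adult levels: 3 counts in an adult library are 0.238 CPM on average, and lower levels were not detectable.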
